A study of Mus musculus with 10 samples.

Results

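The genes described here are those of cyclic AMP, CREB and CaM kinase signalling, measured in the hippocampus of Dp1Rhr mice and of control littermates. The members were chosen by gene name from the pathway, and were selected on earlier results of the same contrast, in which the adenylyl cyclase Adcy1 and the coactivators Crebbp and Ep300 had already been seen to be lower in Dp1Rhr. The list held 36 genes, and 33 of them were among the 19938 genes tested. Gnas, Prkaca and Rapgef4 had no probe set annotated with that gene alone, so their array values were not analysed here. Dp1Rhr mice carry Dp(16Cbr1-Fam3b)1Rhr, in which the stretch of chromosome 16 that begins at Cbr1 and ends at Fam3b is repeated in tandem, so that its genes are present at 3 copies. All mice were males aged 16 weeks, with 5 Dp1Rhr mice and 5 wild-type controls, 1 Affymetrix Mouse Gene 1.0 ST array per mouse. The labels give the background as C57BL/6N, whereas the methods of the study describe backcrossing of its duplication lines towards C57BL/6J. The controls were born when Dp5Yah mice were crossed with Dp1Rhr mice. They are also the controls of the other genotypes of that cross, which were not analysed here. RNA came from the whole left and right hippocampus, so fewer cells of a type and less RNA per cell cannot be told apart.

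Cyclic AMP is a small second messenger. Receptors coupled to stimulatory G proteins activate adenylyl cyclases, which make it from ATP, and phosphodiesterases break it down. It acts by releasing the catalytic subunits of protein kinase A (PKA) from their regulatory subunits and by opening the exchange factors known as EPAC. PKA phosphorylates the transcription factor CREB, and CaM kinase IV does the same when calcium enters a neuron. Phosphorylated CREB then recruits the paired acetyltransferases CBP and p300, and CRTC proteins join it on its sites, called cyclic AMP response elements. In the hippocampus this cascade is known for the lasting form of synaptic potentiation and for long-term memory, where the calcium-stimulated cyclases link calcium entry to cyclic AMP and CaM kinase II acts at the synapse.

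None of the members lies in the duplicated interval (GRCm38 chr16:93607837-97504936). Its 31 measured genes had a median log2 difference between Dp1Rhr and control of 0.21. At an adjusted p of 0.05, limma called 14 of them higher (background over all genes 0.627%) and 0 lower (background 0.176%). Dyrk1a, a kinase gene of the interval, had a mean log2 signal of 11.73 ± 0.06 (SD) in the 5 control arrays and of 12.00 ± 0.04 (SD) in the 5 Dp1Rhr arrays, with no overlap between the groups. The members were spread over 15 chromosomes, and 3 of them, Crebbp, Adcy9 and Adcy5, lay on chromosome 16 outside the duplication. Over all 35556 probe sets, array medians were between 6.77 and 6.83 on the log2 scale and arrays correlated with one another at 0.996 to 0.998. Control replicates 2 and 3 stood apart in markers of choroid plexus, the epithelium that borders the ventricle beside the hippocampus. The mean log2 signal over the 18 measured of 20 choroid plexus genes was 7.06 and 7.25 in these arrays, 8.34 to 8.95 in the other control arrays and 8.52 to 9.31 in Dp1Rhr. Values without control replicates 2 and 3 are given below for the list, for some role groups and for the members that moved most. They are also given for Adcy1, Crebbp and Ep300.

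Across the members, small differences towards lower signal in Dp1Rhr were the common pattern. Of the 33 measured members, 1 was called lower by limma at an adjusted p of 0.05 (background over all genes 0.176%) and 0 were called higher (background 0.627%). At an unadjusted p of 0.05 the members held 9 lower genes (background 6.44%) and 0 higher genes (background 8.55%). All Dp1Rhr arrays were below all control arrays for 8 members (background 1.7%) and above them for 0 (background 1.82%). FCROS, the rank-based method of the study, called 4 lower (background 1.99%), which were Adcy1, Adcy8, Crebbp and Ep300, and 0 higher (background 3.4%). Since members were chosen with this contrast known, these counts describe the list and nothing is read from them against the background.

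The median log2 difference of the members was -0.05, with quartiles at -0.09 and -0.01 and extremes at -0.25 for Adcy8 and 0.08 for Gnal. The difference was below 0 for 25 members (75.8%), beside 50.1% of all genes tested and 50.3% of the 11963 genes above the 40th percentile of mean signal. The median over all genes was -0.00. Without control replicates 2 and 3 the median stayed at -0.05 and 21 members were below 0. With a covariate for the choroid plexus signal of the array, the median was -0.04 and 22 members were below 0.

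**Figure D1:**
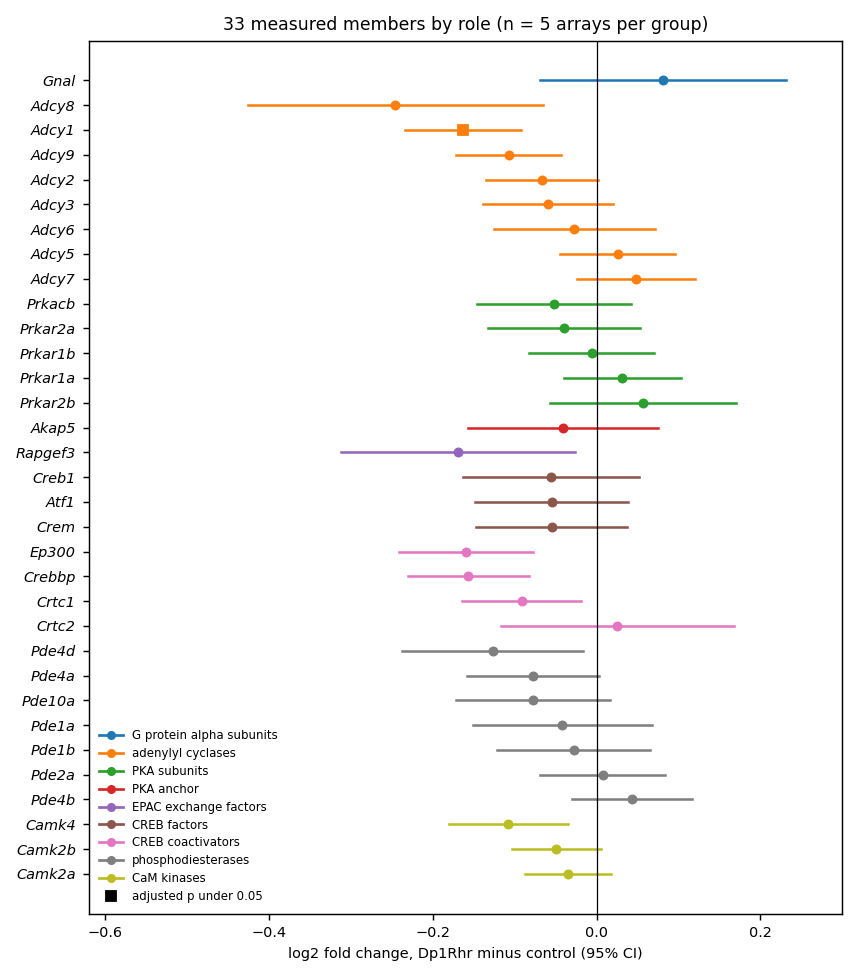
Log2 difference between Dp1Rhr and control (x axis) for each of the 33 measured members (y axis, grouped and coloured by role), with bars for the 95% confidence interval from limma and n = 5 arrays per group. Adcy1, drawn as a square, is the member past the adjusted threshold, and 25 of the 33 points lie left of 0.

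The shift was not carried by every array alike. The mean over the members was 10.15, 10.19, 10.20, 10.18 and 10.17 in control replicates 1 to 5, and 10.10, 10.12, 10.11, 10.14 and 10.15 in Dp1Rhr replicates 1 to 5. The groups met at 10.15, where the highest Dp1Rhr array reached the lowest control array. Dp1Rhr replicate 1 was the lowest of the 10 arrays for 9 members, and Dp1Rhr replicate 5 was the lowest for 0. Control replicates 2 and 3 were the highest arrays for 8 and 7 members.

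**Figure D2:**
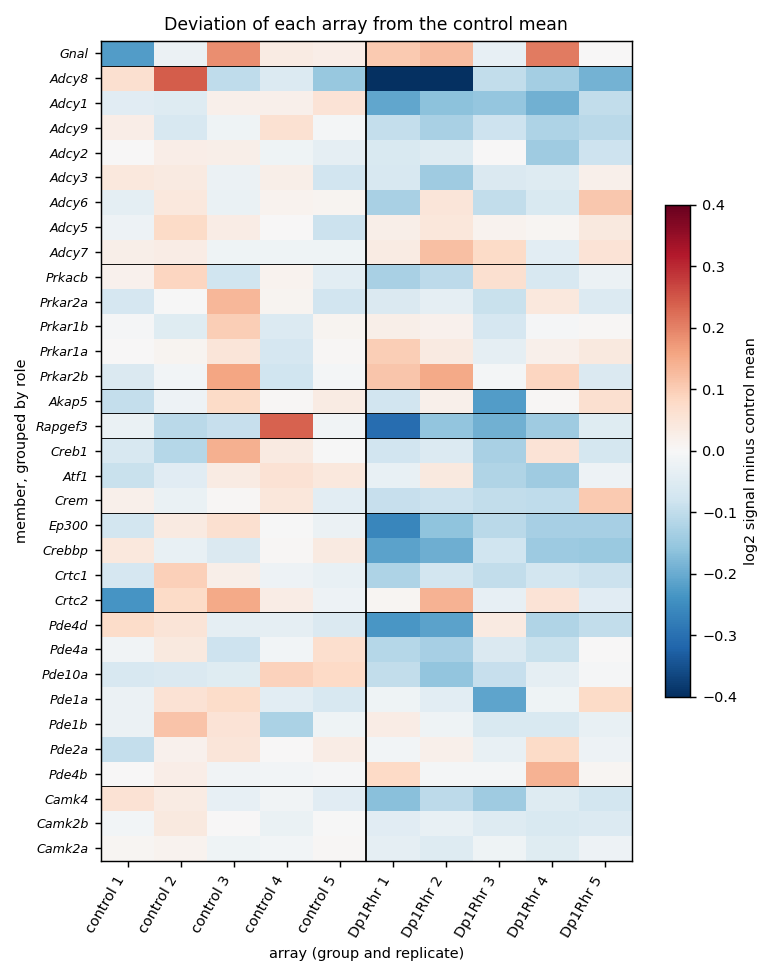
Each cell gives the log2 signal of a member (rows, grouped by role) in an array (columns, 5 control and 5 Dp1Rhr) minus the mean of the 5 control arrays for that gene. Blue cells fill the Dp1Rhr side for Adcy1, Adcy9, Crebbp, Ep300 and Camk4, whereas PKA subunits hold a mixture of both colours.

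Promoter sequences are shown for the 4 members with the smallest p among those with a usable entry, because these carry the lower signals described next, and for Prkar1a, the one member with a whole cyclic AMP response element in the window searched. Each window runs 5′ to 3′ from 250 bases before to 50 bases after a RefSeq transcription start on GRCm38.p6, and capitals mark the cyclic AMP response element (TGACGTCA), its core (TGACG, which also lies inside the whole element) and the GC box (GGGCGG), searched on both strands. The windows are chr11:7063183-7063482 on the plus strand for Adcy1, chr16:4213355-4213654 on the minus strand for Crebbp, chr15:81585964-81586263 on the plus strand for Ep300, chr16:4420449-4420748 on the minus strand for Adcy9 and chr11:109650612-109650911 on the plus strand for Prkar1a, which has 6 windows in the table. For Crebbp, Adcy9 and Prkar1a these starts lie inside the annotated gene, whose longest model begins further upstream.
Adcy1: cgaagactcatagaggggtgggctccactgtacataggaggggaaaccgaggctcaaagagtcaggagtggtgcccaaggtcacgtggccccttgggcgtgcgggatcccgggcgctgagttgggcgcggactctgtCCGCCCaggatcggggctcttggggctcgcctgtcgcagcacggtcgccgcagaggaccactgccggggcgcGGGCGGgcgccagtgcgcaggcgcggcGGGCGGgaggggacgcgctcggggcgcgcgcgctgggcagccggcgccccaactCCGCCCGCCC
Crebbp: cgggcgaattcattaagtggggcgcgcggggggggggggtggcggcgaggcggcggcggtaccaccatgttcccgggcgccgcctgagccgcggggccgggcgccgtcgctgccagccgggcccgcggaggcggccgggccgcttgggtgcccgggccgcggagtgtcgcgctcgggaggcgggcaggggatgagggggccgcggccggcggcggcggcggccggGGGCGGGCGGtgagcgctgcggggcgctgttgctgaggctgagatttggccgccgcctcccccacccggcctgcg
Ep300: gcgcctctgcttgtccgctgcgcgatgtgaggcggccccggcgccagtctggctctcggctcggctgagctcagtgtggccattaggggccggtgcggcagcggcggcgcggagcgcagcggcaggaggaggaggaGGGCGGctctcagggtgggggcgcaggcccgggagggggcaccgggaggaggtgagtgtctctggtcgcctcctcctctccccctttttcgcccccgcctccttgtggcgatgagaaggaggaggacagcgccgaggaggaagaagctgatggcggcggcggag
Adcy9: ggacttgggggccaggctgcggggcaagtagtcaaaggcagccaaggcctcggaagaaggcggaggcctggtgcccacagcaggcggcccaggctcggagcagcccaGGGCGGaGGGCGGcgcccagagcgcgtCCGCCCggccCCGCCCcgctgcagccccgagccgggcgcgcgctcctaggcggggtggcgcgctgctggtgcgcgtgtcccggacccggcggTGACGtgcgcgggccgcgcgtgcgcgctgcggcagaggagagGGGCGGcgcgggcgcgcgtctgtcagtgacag
Prkar1a: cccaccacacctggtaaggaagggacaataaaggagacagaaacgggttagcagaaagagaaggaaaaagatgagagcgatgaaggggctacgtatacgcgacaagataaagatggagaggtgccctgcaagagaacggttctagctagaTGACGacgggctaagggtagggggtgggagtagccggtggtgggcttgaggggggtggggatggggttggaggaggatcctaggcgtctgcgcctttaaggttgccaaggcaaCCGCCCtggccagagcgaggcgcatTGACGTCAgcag

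The share of G and C in the windows of the 4 lower members was 74.0% for Adcy1, 82.0% for Crebbp, 72.3% for Ep300 and 78.3% for Adcy9. It was not computed over all windows, so these values do not set the 4 apart. Each of the 4 held at least 1 GC box, as did 24 of the 29 members with an entry in at least 1 window. None of the 4 windows held a whole response element, and Adcy9 held 1 core. Over all 63 windows of the 29 members with an entry, 2 held the whole element, both of Prkar1a, beside 1.79% of all 32851 windows. The core was in 28.6% of member windows and 20.8% of all windows, and the GC box was in 50.8% and 35.7%. The member windows include those of Gnas, Prkaca and Rapgef4, which have promoter entries but no array values here. These are counts of letters in windows that overlap within a gene, and a match is not evidence of binding.

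The adenylyl cyclases, which make cyclic AMP, held the called gene. Of the 8 members of this family, 6 had a difference below 0 and the median was -0.06. At an unadjusted p of 0.05, 3 passed, all lower (background over all genes 6.44%). Adcy1 among them had been seen to be lower before the list was chosen. Adcy1, the calcium and calmodulin stimulated cyclase of hippocampal and cortical neurons, fell. Its log2 signal was 11.66, 11.65, 11.72, 11.72 and 11.76 in control replicates 1 to 5, and 11.50, 11.54, 11.55, 11.51 and 11.61 in Dp1Rhr. All Dp1Rhr arrays lay below all control arrays, with a gap of 0.0459 between the nearest pair. The log2 difference was -0.16 ± 0.03 (SE), a level 0.893-fold that of control, with an adjusted p of 0.0486 in limma. The call sat at the threshold, since it was kept without Dp1Rhr replicate 5 and lost when any of the other 9 arrays was left out, with adjusted p between 0.0310 and 0.148. The size was steadier than the call, at -0.18 to -0.15 over these fits and -0.17 (adjusted p = 0.136) without control replicates 2 and 3.

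Adcy8, the other calcium-stimulated cyclase, had the largest difference of the members. Control arrays were at 9.08, 9.26, 8.91, 8.96 and 8.87, and Dp1Rhr arrays at 8.62, 8.61, 8.92, 8.88 and 8.83. The groups overlapped, and Dp1Rhr replicates 1 and 2 were well below all others. The log2 difference was -0.25 ± 0.08 (SE), 0.843-fold, with an adjusted p of 0.177. It was -0.20 without control replicates 2 and 3 and -0.17 with the choroid plexus covariate. In those 2 fits Rapgef3 had a larger difference than Adcy8, at -0.24 and -0.25.

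Adcy9, a widely expressed cyclase that forskolin activates poorly, was at 10.23, 10.14, 10.18, 10.26 and 10.19 in control and 10.11, 10.07, 10.12, 10.08 and 10.10 in Dp1Rhr. The groups did not overlap and the Dp1Rhr arrays were tightly grouped, with a log2 difference of -0.11 ± 0.03 (SE) and an adjusted p of 0.109. Adcy2, a calcium-insensitive cyclase, was at 11.01, 11.04, 11.04, 10.99 and 10.98 in control and 10.95, 10.96, 11.01, 10.87 and 10.93 in Dp1Rhr. Dp1Rhr replicate 3 fell among the control arrays, and the adjusted p was 0.347 for a difference of -0.07. The remaining cyclases lay close to 0. Adcy3, the cyclase of cilia, differed by -0.06 and Adcy6, which calcium inhibits, by -0.03. Adcy5, the main cyclase of the striatum, differed by 0.03 and Adcy7 by 0.05, with adjusted p of 0.797 and 0.561.

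Upstream, the measured G protein alpha subunit was Gnal, which couples dopamine and odorant receptors to cyclases. Its arrays were at 9.90, 10.10, 10.31, 10.16 and 10.16 in control and 10.23, 10.25, 10.10, 10.34 and 10.13 in Dp1Rhr. The groups overlapped over most of their range, and the difference of 0.08 ± 0.07 (SE) was the highest of the members, with an adjusted p of 0.663. The value rested on single arrays, at 0.03 without control replicate 1, 0.13 without control replicates 2 and 3 and 0.18 with the choroid plexus covariate. Adcy5, Gnal, Pde10a and Pde1b are abundant in striatum, and the mean over 11 striatal marker genes was 7.89 to 7.99 in control and 7.98 to 8.10 in Dp1Rhr. The part of this tissue in the values of these 4 genes was not tested.

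The coactivators of CREB had a median of -0.12, which was -0.09 without control replicates 2 and 3 and -0.07 with the choroid plexus covariate. Of their 4 members, 3 had Dp1Rhr arrays below all control arrays (background over all genes 1.7%) and 1, Crtc2, did not share the direction. Crebbp and Ep300 had been seen to be lower before the list was chosen, so this count describes the list only. Crebbp encodes CBP, the histone acetyltransferase that binds phosphorylated CREB. Its signal was 11.39, 11.32, 11.29, 11.36 and 11.39 in control and 11.13, 11.16, 11.27, 11.20 and 11.20 in Dp1Rhr. Dp1Rhr replicate 3 came closest to the control arrays, 0.0212 below the lowest of them. The log2 difference was -0.16 ± 0.03 (SE), 0.897-fold, with an adjusted p of 0.0617, and of the fits that left out 1 array, the one without Dp1Rhr replicate 3 brought it past the threshold, at 0.0420. Without control replicates 2 and 3 the difference was -0.19.

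Ep300 encodes p300, the close relative of CBP. Control arrays were at 10.44, 10.55, 10.57, 10.51 and 10.49, and Dp1Rhr arrays at 10.25, 10.35, 10.40, 10.38 and 10.38. The groups did not overlap, and Dp1Rhr replicate 1 was the lowest. The log2 difference was -0.16 ± 0.04 (SE), 0.895-fold, with an adjusted p of 0.0760 that stayed between 0.0612 and 0.181 when each array was left out. It was -0.13 without control replicates 2 and 3 and -0.11 with the choroid plexus score as a covariate.

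Crtc1 encodes the neuronal coactivator that enters the nucleus when calcineurin removes its phosphates. It was at 11.63, 11.80, 11.73, 11.68 and 11.67 in control and 11.58, 11.63, 11.60, 11.63 and 11.62 in Dp1Rhr. The groups were parted by only 0.00577, and the difference of -0.09 ± 0.03 (SE) had an adjusted p of 0.215. It was -0.05 without control replicates 2 and 3, the highest and second highest control arrays. Crtc2, its relative best known in liver, differed by 0.03 with an adjusted p of 0.917, and by 0.10 without control replicates 2 and 3.

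The factors that these coactivators serve were measured at smaller differences. Creb1, the main factor that binds cyclic AMP response elements, differed by -0.06 ± 0.05 (SE) with an adjusted p of 0.679, and Atf1, its close relative, by -0.05 with an adjusted p of 0.625. Crem, which also gives rise to the inducible repressor ICER, was at 7.31, 7.27, 7.30, 7.34 and 7.25 in control and 7.20, 7.21, 7.19, 7.19 and 7.40 in Dp1Rhr. Dp1Rhr replicate 5 was the highest of all arrays while the other Dp1Rhr arrays were below all controls, and the difference of -0.05 had an adjusted p of 0.619.

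**Figure D3:**
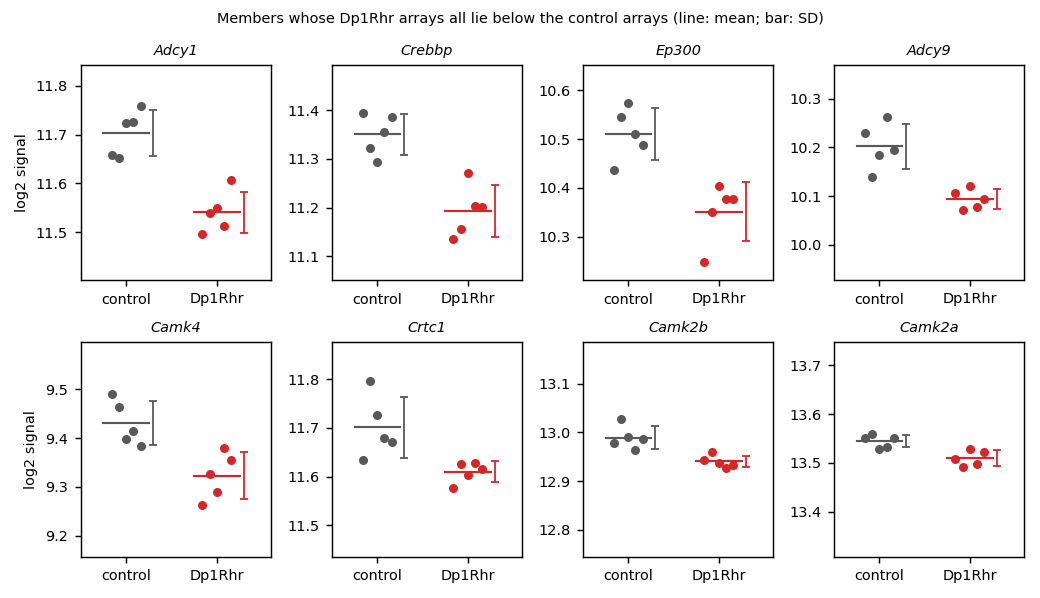
Log2 signal (y axis, a range of equal height in each panel that does not start at 0) of every array in control and Dp1Rhr (x axis) for the 8 members whose groups did not overlap, with a line at the group mean and a bar of 1 SD (n = 5). The gap is widest for Adcy1, at 0.0459, and for Camk2a it is 0.000215.

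All 3 CaM kinase members had Dp1Rhr arrays below all control arrays (background over all genes 1.7%). Their median difference was -0.05, and none passed the adjusted threshold. Among the 12 other CaM kinase genes, inhibitors and calmodulins measured, 1 had such groups and the median was -0.03. Members were chosen with this contrast known, so the count describes these 3 genes only. Camk4 encodes the nuclear kinase that phosphorylates CREB after calcium entry. It was at 9.49, 9.46, 9.40, 9.42 and 9.38 in control and 9.26, 9.33, 9.29, 9.38 and 9.36 in Dp1Rhr. Control replicate 5 and Dp1Rhr replicate 4 were 0.00356 apart, and the difference of -0.11 ± 0.03 (SE) had an adjusted p of 0.146. Camk2b, the beta subunit of CaM kinase II that binds actin, was at 12.98, 13.03, 12.99, 12.96 and 12.99 in control and 12.94, 12.96, 12.94, 12.93 and 12.93 in Dp1Rhr. Its groups were parted by 0.00428 on the log2 scale, and the difference of -0.05 ± 0.03 (SE) had an adjusted p of 0.389. Camk2a, the alpha subunit and a main protein of the postsynaptic density, was at 13.55, 13.56, 13.53, 13.53 and 13.55 in control and 13.51, 13.49, 13.53, 13.50 and 13.52 in Dp1Rhr. The separation was within rounding of these values, and the difference of -0.03 ± 0.02 (SE) had an adjusted p of 0.561.

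PKA itself showed little difference. The 5 measured subunit genes had a median of -0.01, 3 were below 0, and neither the adjusted nor the unadjusted threshold was passed. Without control replicates 2 and 3 the median was 0.01 and 1 was below 0. Prkacb, which encodes the beta catalytic subunit, was at 11.99, 12.06, 11.89, 11.99 and 11.93 in control and 11.84, 11.87, 12.04, 11.91 and 11.95 in Dp1Rhr. The groups overlapped, with Dp1Rhr replicate 3 near the top, and the difference was -0.05 with a 95% interval from -0.15 to 0.04. The regulatory subunits hold the catalytic subunits inactive. Of these, Prkar1b, the type I form enriched in brain, differed by -0.01 with an interval from -0.08 to 0.07, and Prkar2b, the brain form of type II, by 0.06 with an interval from -0.06 to 0.17. Without control replicates 2 and 3 Prkar2b differed by 0.11. Prkar1a differed by 0.03 and Prkar2a by -0.04, the latter at 0.005 without control replicates 2 and 3. These intervals leave room for differences of the size seen in Adcy1 for Prkar2b in the higher direction, and not in the lower direction for any regulatory subunit.

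Akap5, which anchors PKA and calcineurin at the postsynaptic membrane, was at 9.40, 9.47, 9.57, 9.50 and 9.52 in control and 9.42, 9.51, 9.27, 9.50 and 9.56 in Dp1Rhr. Only Dp1Rhr replicate 3 was outside the control range, and the difference of -0.04 (adjusted p = 0.801) was 0.0039 when it was left out. Rapgef3 encodes EPAC1, which cyclic AMP opens without PKA. It was at 8.06, 7.98, 7.99, 8.32 and 8.07 in control and 7.78, 7.92, 7.89, 7.94 and 8.03 in Dp1Rhr. Control replicate 4 was far above the rest and Dp1Rhr replicate 1 was the lowest. The difference was -0.17 ± 0.07 (SE) with an adjusted p of 0.243. It was -0.11 without control replicate 4, and -0.24 without control replicates 2 and 3.

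The phosphodiesterases end the signal. Of the 7 members, 5 were below 0, the median was -0.04 and 0 passed the adjusted threshold in limma. The 1 gene below an unadjusted p of 0.05 was lower (background over all genes 6.44%). FCROS called 0 (background 1.99% lower and 3.4% higher). The lower direction of the group was lost without control replicates 2 and 3, where the median was 0.00 and 3 of 7 were below 0, and with the choroid plexus covariate the median was -0.02 and 4 of 7 were below 0. Pde4d, a cyclic AMP specific enzyme of the rolipram-sensitive family, was the gene below the unadjusted threshold. It was at 9.81, 9.79, 9.70, 9.70 and 9.68 in control and 9.50, 9.52, 9.77, 9.62 and 9.64 in Dp1Rhr. Dp1Rhr replicate 3 lay among the control arrays and the other Dp1Rhr arrays lay below them, with a difference of -0.13 ± 0.05 (SE) and an adjusted p of 0.259. It was the one member with more than 1 probe set, and its 3 probe sets differed by -0.13, -0.19 and -0.13, all in 1 direction. Their mean log2 signals were 9.68, 9.15 and 4.92, the last below the array medians. With every probe set tested on its own, limma gave adjusted p of 0.260, 0.417 and 0.241.

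Pde4a, of the same family, was at 9.34, 9.39, 9.27, 9.34 and 9.42 in control and 9.24, 9.22, 9.29, 9.26 and 9.35 in Dp1Rhr. The groups overlapped, and the difference of -0.08 had an adjusted p of 0.352. Pde4b, the third member of that family on the list, differed by 0.04. Pde10a, an enzyme of striatal neurons that degrades both cyclic nucleotides, differed by -0.08. The calmodulin-stimulated Pde1a and Pde1b differed by -0.04 and -0.03, and by 0.00 and 0.03 without control replicates 2 and 3. Pde2a, which cyclic GMP activates, differed by 0.01 with an adjusted p of 0.960.

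**Figure D4:**
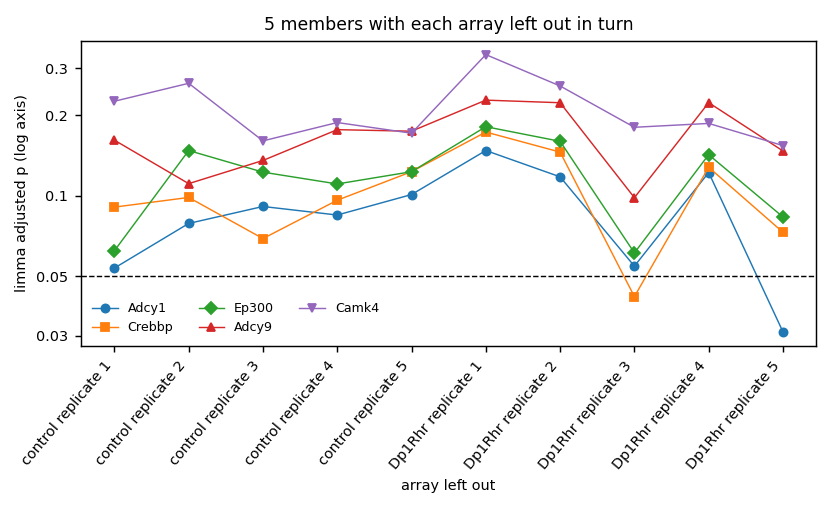
Adjusted p of limma (y axis, log scale) when each of the 10 arrays is left out in turn (x axis) for the 5 members with the smallest p. Points below the dashed line at 0.05 are Adcy1 without Dp1Rhr replicate 5 and Crebbp without Dp1Rhr replicate 3.

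Gene length and position were not used to choose the members and are given here as description. The annotated gene spans, introns included, of the 8 members whose groups did not overlap had a median of 105.9 kb, beside 80.4 kb for the other 25 measured members and 17.7 kb for the 19852 genes tested with coordinates. Among the 8 the span ranged from 57.4 kb for Crtc1 to 260.8 kb for Camk4, and 3 of them, Crtc1, Camk2a and Ep300, were shorter than the median of the other members. The span of the longest member, Pde4d, was 1302 kb, and its groups overlapped. Crebbp at chr16:4081334-4213957 and Adcy9 at chr16:4284886-4437236 lie near each other on the proximal part of chromosome 16, far from the duplicated interval, and Adcy5, on the same chromosome, differed by 0.03.

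The wider pathway was read from 80 other genes, of which 70 were measured. limma called 0 lower (background over all genes 0.176%) and 0 higher (background 0.627%). At an unadjusted p of 0.05, 9 were lower (background 6.44%) and 1 was higher (background 8.55%). FCROS called 1 lower, Rps6ka3 (background 1.99%), and 1 higher, Glp1r (background 3.4%). The median difference was -0.02, and 39 genes (55.7%) were below 0. By function, the medians were 0.00 for 14 other cyclases, phosphodiesterases and EPAC partners, -0.02 for 14 receptors coupled to stimulatory G proteins, 0.04 for 5 inhibitory alpha subunits, -0.03 for 14 inhibitors, anchors and substrates of PKA, -0.00 for 11 other CREB family genes, coactivators and CREB kinases, and -0.03 for 12 other CaM kinase genes, inhibitors and calmodulins.

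The CaM kinase I gene Camk1d was the one gene of these 70 whose groups did not overlap (background over all genes 1.7% lower and 1.82% higher). It was at 10.49, 10.56, 10.46, 10.46 and 10.42 in control and 10.26, 10.38, 10.34, 10.34 and 10.41 in Dp1Rhr, a difference of -0.13 with an adjusted p of 0.106. Pde3b, the phosphodiesterase that cyclic GMP inhibits, also differed by -0.13, with an adjusted p of 0.127. Rps6ka3, a kinase of the RSK family that phosphorylates CREB downstream of ERK, differed by -0.18 with an adjusted p of 0.165. Camk2n1, an inhibitor of CaM kinase II, differed by -0.08 and Vipr1, a receptor for vasoactive intestinal peptide, by -0.16, with adjusted p of 0.313 and 0.299. Glp1r, the receptor for glucagon-like peptide 1, had the widest spread. Its control arrays were at 8.05, 8.44, 8.77, 9.97 and 9.12 and its Dp1Rhr arrays at 9.59, 9.87, 10.06, 9.95 and 9.03, and the difference of 0.83 had an adjusted p of 0.224.

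**Figure D5:**
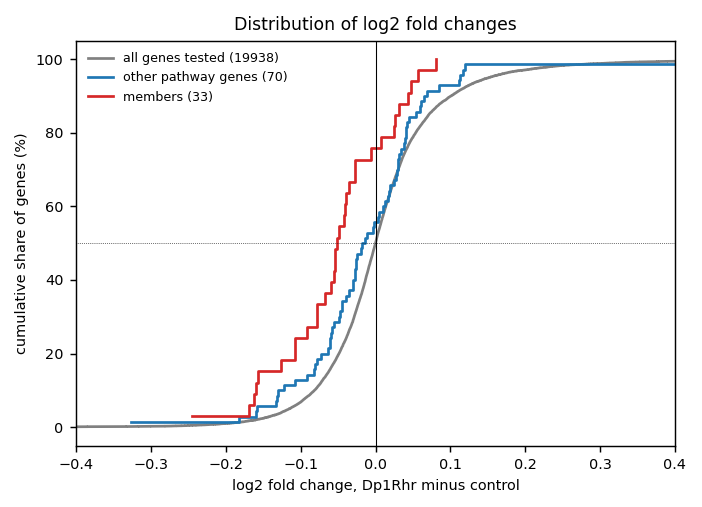
Cumulative share of genes (y axis, percent) against the log2 difference between Dp1Rhr and control (x axis, cut at -0.4 and 0.4, so that Glp1r at 0.83 is not shown) for the 33 measured members, the 70 other pathway genes and all 19938 genes tested. The members' curve crosses 50% at -0.05, that of the other pathway genes at -0.02 and that of all genes at -0.00.

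Transcription of immediate early genes follows CREB, among other factors, and was set beside the members. All 20 listed immediate early genes were below 0, with 2 called lower by limma (background over all genes 0.176%). Their median was -0.32, and -0.18 without control replicates 2 and 3. The list mean was 8.89, 9.33, 9.60, 9.04 and 9.09 in control and 8.80, 8.85, 8.80, 8.76 and 8.84 in Dp1Rhr, so the control arrays were both higher and more scattered. Fos had a mean of 7.23 ± 0.55 (SD) over the 5 control arrays and of 6.55 ± 0.07 (SD) over the 5 Dp1Rhr arrays. Control replicates 2 and 3 were the highest in this list, and the part of these arrays in the members' difference is given by the values without them above.

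Markers of other cells and regions moved with the groups to different extents. Choroid plexus genes had a median difference of 0.87, and 0.28 without control replicates 2 and 3, and Ttr, its most abundant transcript, had a mean of 11.88 ± 2.02 (SD) over the control arrays and of 13.44 ± 0.19 (SD) over the Dp1Rhr arrays. The list means of oligodendrocyte genes were 11.09 to 11.24 in control and 11.21 to 11.41 in Dp1Rhr, those of microglia 8.90 to 9.00 and 8.98 to 9.08, and those of endothelium and blood 8.59 to 8.71 and 8.73 to 8.86. Medians for these 3 lists were 0.15 over 9 genes, 0.08 over 9 genes and 0.11 over 8 genes. The 12 habenula and thalamus genes went both ways, from -0.86 to 1.17 with a median of 0.11. At an unadjusted p of 0.05, 3 of them were lower (background 6.44%) and 5 higher (background 8.55%). Their list mean was 8.64, 8.39 and 8.74 in Dp1Rhr replicates 2 to 4, 7.94 and 7.96 in Dp1Rhr replicates 1 and 5, and 7.99 to 8.30 in control. Markers of the hippocampus itself were present in both groups, with list means of 10.28 to 10.39 in control and 10.32 to 10.38 in Dp1Rhr for 11 pyramidal cell genes, 9.35 to 9.58 and 9.50 to 9.61 for 10 dentate granule cell genes, and 10.75 to 10.89 and 10.80 to 10.89 for 10 astrocyte genes. The median of the pyramidal cell genes was -0.05, with 8 of 11 below 0, the same size and direction as that of the members, and -0.02 without control replicates 2 and 3. The median of the dentate granule cell genes was 0.05, with 2 of 10 below 0 and 1 called higher (background 0.627%). This median was -0.02 without control replicates 2 and 3, and that of the astrocyte genes was 0.04. The part of these lists in the lower signal of Adcy1, Crebbp and Ep300 was not tested beyond the choroid plexus covariate, under which Adcy1 was at -0.17 (adjusted p = 0.156), Crebbp at -0.18 and Ep300 at -0.11.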

How the data were processed

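Total RNA of the hippocampus was hybridised to 1 array per mouse. The values deposited by the authors are on the log2 scale, from RMA (background correction, quantile normalization and a summary over the probes of a set). The set of arrays normalized jointly is not given in the sources used here. limma and mm10 are also named in the submitters' processing notes. Quantile normalization hides a shift common to all genes. The number of arrays limits the precision. The labels call samples biological replicates.

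Of 35556 probe sets, 21789 had exactly 1 annotated symbol, 1621 several and 12146 were not listed in the platform annotation. Where a gene had several (999 genes), the probe set of highest mean signal over the 10 arrays stood for it, giving 19938 genes. RefSeq genes of GRCm38 were found for 21698 named probe sets through their Entrez identifiers. Groups were compared in limma 3.58.1 (R 4.3.3) with lmFit and eBayes, two-sided, with Benjamini-Hochberg adjustment over all genes. The fitting script was checked on simulated data. FCROS, which calls a near-fixed share of genes, was implemented anew as an alternative, with a trim of 0.25 and limits of 0.025 and 0.975.

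The members and all lists were chosen with earlier results of these data known. Every measured member was named. Array values are given for the 12 members of smallest p and for 1 member of each role not reached by them, those of Camk2a being added after its values were seen. Of the other pathway genes, the 6 with the smallest p were named, and Ttr, Fos and Dyrk1a were given as markers. Protein sequences were not used here. Same-numbered replicates did not deviate together, with correlations from -0.34 to 0.12, so the numbers were not used as pairs. The alternatives were leaving out each array, the replicate block, a second quantile normalization, 2 centrings, array weights, trend and robust eBayes, the 40th percentile filter, other uses of probe sets, the choroid plexus covariate, and control replicates 2 and 3 left out together.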

Additional observations from a re-analysis of the deposited data

Results flagged for a closer look

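In 66 groups of 5 arrays (33 members, control and Dp1Rhr), the gap between the extreme array and its nearest neighbour was divided by the range of the group, and arrays past Dixon's 95% critical value for 5 samples were taken as far from the rest. Chance passes this limit in about 1 of 20 groups. Rapgef3 in control replicate 4 was at 8.32, with the other control arrays at 7.98 to 8.07 and a ratio of 0.728. Crem in Dp1Rhr replicate 5 was at 7.40, with the other Dp1Rhr arrays at 7.19 to 7.21 and a ratio of 0.920.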

How the results depend on the processing

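The number of members called lower, 1 as reported, was 2 with array weights, with centring on the array median and with trend and robust eBayes, the added gene being Crebbp each time, and 4 with FCROS. It was 0 with centring on all probe sets (added after the data were seen), the choroid plexus covariate, every probe set on its own, the replicate block, a second quantile normalization, and control replicates 2 and 3 both left out, and 0 to 1 with each array left out. No setting called a member higher. Over all genes, 35 lower calls became 67 with array weights, 89 with centring on the array median, 17 with centring on all probe sets, 19 with every probe set on its own, 1 with the choroid plexus covariate, 0 with the replicate block, 0 without control replicates 2 and 3, 397 with FCROS and 0 to 67 with each array left out. The 125 higher calls became 213 with array weights, 5 with the choroid plexus covariate, 4 with the replicate block, 5 without control replicates 2 and 3, 678 with FCROS and 5 to 217 with each array left out. Lower genes made 21.9% of calls as reported, 47.8% with centring on the array median, 13.7% with centring on all probe sets and 26.6% with a second quantile normalization. The other pathway genes, with 0 calls, had 1 lower and 1 higher with FCROS and 0 with each array left out. The members' median of -0.05 was -0.076 with centring on the array median, which moves every gene alike. The median over all genes was then -0.024, beside -0.00 as reported. With each array left out the members' median was -0.06 to -0.04, and members below 0 numbered 22 to 27. Single genes were counted for 22: the members of smallest p, a member of each role not reached by them, and the named other pathway genes. For these, 442 values under alternatives kept direction and side of the threshold, 15 (all Adcy1) lost the call and 4 (all Crebbp) gained it. Akap5 reversed to 0.0039 without Dp1Rhr replicate 3 (-0.068 to 0.0039 with each array left out). Members outside this count also changed sign. Without control replicates 2 and 3, Prkar1b was at 0.01, Prkar2a at 0.005 and Pde1b at 0.03. Crtc2 ranged from -0.034 to 0.063 with each array left out. The causes were not tested. The replicate block was fitted though the numbers do not pair the mice.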
